A study of Mus musculus with 24 samples.

Results

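Tumours given filanesib together with pomalidomide were compared with untreated tumours. The comparison held 3 arrays of the pair and 3 of control, 6 of the 24 arrays in the series. Genes were named by the single symbol of the array's probe table, with 1 probe set per gene, the one with the highest mean over all 24 arrays, which gave 14884 genes. The tumours were plasmacytomas grown under the skin of CB17-SCID mice, an immunodeficient strain, from MM.1S, an established human multiple myeloma line injected with Matrigel. The mice of the pair received filanesib (ARRY-520) at 10 mg/kg and pomalidomide at 8 mg/kg, both intraperitoneally, for 2 days. The control samples are labelled as having had no treatment, while the treatment protocol describes a vehicle of PBS. The arrays of filanesib alone and of pomalidomide alone, 3 each at the same doses, route and duration, were used to set the pair beside its parts. No allele or transgene is named for any of these groups, and all of them share the same host strain and the same single tumour line. Nothing in the labels says that each array came from its own mouse, so the p-values reflect only how these samples vary, which may be technical.

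Filanesib blocks KIF11 (Eg5), the kinesin motor that pushes the spindle poles apart, and cells that cannot separate their poles are held in mitosis. Pomalidomide binds cereblon, the substrate receptor of a ubiquitin ligase, and redirects it to the lymphoid transcription factors Ikaros and Aiolos (IKZF1 and IKZF3), which sustain IRF4 and MYC in myeloma cells. Ikaros and Aiolos also repress interferon-stimulated genes, a set of antiviral effectors otherwise switched on by interferon. The series' design text names the question as how filanesib adds to drugs of the pomalidomide class.

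Values are log2 expression levels, so a difference of 1 is a doubling. The 6 arrays of the pair and of control correlated with one another at 0.984 to 0.989 over all probe sets, and their residual SD around the group means was 0.129 to 0.152. The arrays of pomalidomide alone were spread more widely, with residual SDs of 0.232, 0.193 and 0.288 for arrays 1, 2 and 3, against 0.127 to 0.180 in the other 21 arrays. Because all groups share 1 estimate of the spread per gene, results are also given without those arrays where this changed them. The 7 plasma cell markers measured had a list mean of 9.33 to 9.53 over the 6 arrays, though not every member was high. SDC1 (syndecan 1, the plasma cell surface marker) lay between 10.01 and 10.22, and MZB1, a plasma cell chaperone, between 10.99 and 11.32. POU2AF1, a B cell coactivator on the same marker list, was lower at 4.86 to 5.01. The labels give the mouse as the organism, but the probe table names human genes, and how far mouse RNA of the host hybridised was not tested. In bulk tumour RNA, a change in the share of a cell type and a change in RNA per cell cannot be told apart.

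In tumours given the pair, 13 genes rose and 8 fell against control at an adjusted p under 0.05, by limma with Benjamini-Hochberg adjustment over 14884 genes. That is 0.141% of the genes tested, with 0.0873% called higher and 0.0537% called lower, while 1131 genes (7.60%) had an unadjusted p under 0.05. Of the 13 that rose, 8 were interferon-stimulated genes, led by XAF1, IFI44L, IFI44 and MX2. The 8 that fell were 4 microRNA genes, the sterol sensor INSIG1, the secreted protein IGFBP7, the hair keratin-associated gene KRTAP20-1 and the pseudogene LSP1P5. The arrays of the pair and of control did not overlap in any of the 21 genes, as in 15.6% of all genes tested. The number of calls moved with single arrays. It was 3 without array 3 of the pair, 4 without its array 1 and 57 without its array 2, and 10, 14 and 9 without control arrays 1, 2 and 3. XAF1 and LSP1P5 kept their call in each of these 6 fits. With arrays 1 and 3 of pomalidomide alone left out of the fit, 53 genes were called, among them all 21.

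**Figure D1:**
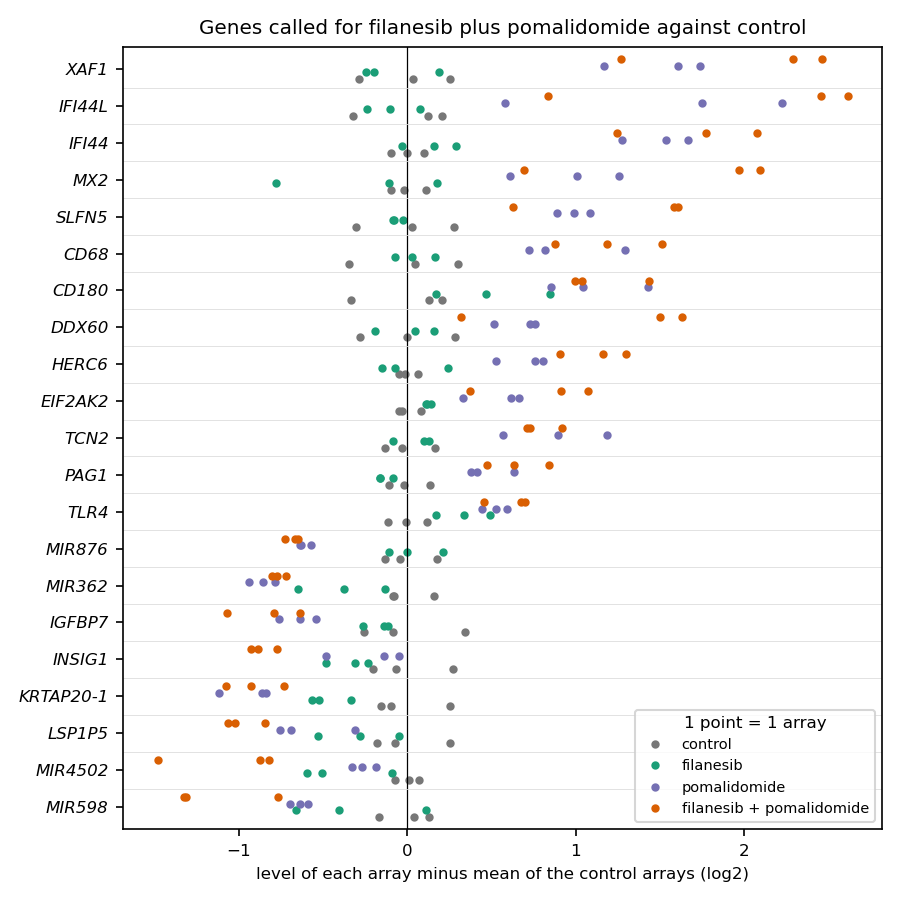
Levels of the 21 genes called for the pair against control, each array drawn as 1 point on the horizontal axis as its log2 level minus the mean of the 3 control arrays, with control, both single drugs and the pair in separate colours. In the interferon genes XAF1, IFI44L, MX2, SLFN5, DDX60 and EIF2AK2, 1 array of the pair (array 2) lies well to the left of the other two, while for all 21 genes the pair lies clear of the control arrays.

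XAF1, an interferon-induced gene that promotes apoptosis by antagonising XIAP, had the smallest p. Its log2 levels were 6.22, 6.77 and 6.54 in the control arrays and 8.80, 7.78 and 8.97 in the pair. Array 2 of the pair was the lowest of its group and still above the highest control array. The rise was 2.01 (SE 0.23, 95% interval 1.52 to 2.49), or 4.01-fold, with an adjusted p of 0.000185. IFI44L, an interferon-induced gene that dampens antiviral signalling, stood at 3.12, 3.65 and 3.56 in control and at 5.89, 4.28 and 6.05 in the pair. It rose 3.91-fold (log2 difference 1.97, SE 0.37, adjusted p 0.0187). Its neighbour in name and function, IFI44, stood at 3.60, 3.80 and 3.70 in control and at 5.47, 4.94 and 5.78 in the pair, a 3.25-fold rise (adjusted p 0.00345). All 3 arrays of the pair were above all 3 of control for both genes.

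MX2, a dynamin-like GTPase that restricts viruses at the nucleus, rose 3.00-fold, from 4.24, 4.31 and 4.44 in control to 6.42, 5.02 and 6.30 in the pair (adjusted p 0.0208). SLFN5, a Schlafen family member, rose 2.41-fold, from 6.87, 7.21 and 7.46 to 8.76, 7.81 and 8.79 (adjusted p 0.0118). HERC6, a ubiquitin ligase related to the ISG15 ligase HERC5, rose 2.17-fold, from 6.38, 6.49 and 6.42 to 7.73, 7.34 and 7.59 (adjusted p 0.0163). Among these, HERC6 had the most even pair arrays, and array 2 of the pair was again the lowest in each. DDX60, a helicase that aids RIG-I, rose 2.21-fold from a low level, with 2.62, 2.90 and 3.19 in control and 4.53, 3.22 and 4.40 in the pair (adjusted p 0.0372). For DDX60 the lowest pair array was just above the highest control array. EIF2AK2, which encodes the double-stranded RNA sensor PKR that halts translation, rose 1.72-fold, from 7.93, 7.80 and 7.82 to 8.76, 8.22 and 8.92 (adjusted p 0.0442).

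The interferon response list held 57 genes, of which 41 were measured. Of these, 8 were called higher and none lower, and over all genes 0.0873% were called higher. Above 0 were 40 of the 41, beside 48.3% of all genes, and 28 had pair and control arrays that did not overlap, beside 15.6% of all genes. All 28 were higher in the pair. The median log2 difference of the list was 0.61, beside -0.01 over all genes tested. The mean level of the 41 genes was 5.66, 5.81 and 5.80 in the control arrays and 6.80, 6.12 and 6.76 in the pair. Array 2 of the pair was the lowest of its group in 33 of the 41 genes, whereas it was the lowest in 37.4% of all genes. The count of called members was 2, 3 and 3 without control arrays 1, 2 and 3, and 2, 19 and 1 without pair arrays 1, 2 and 3. Over those 6 fits the list median stayed between 0.50 and 0.91.

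Several of the classical members had large differences that missed the threshold. IFIT1, which binds viral RNA caps, stood at 3.27, 3.31 and 2.80 in control and at 5.69, 3.97 and 5.60 in the pair (log2 difference 1.96, SE 0.43, adjusted p 0.0634). CXCL10, a chemokine that draws T cells, stood at 5.74, 6.70 and 6.48 against 8.41, 7.43 and 8.30 (log2 difference 1.74, adjusted p 0.149). These groups did not overlap either. The pair arrays were spread, as they also were in the called genes IFI44L and DDX60 (SD 0.98 and 0.72). Why IFIT1 and CXCL10 missed the threshold was not tested. RSAD2 (viperin) had a log2 difference of 1.19 (adjusted p 0.0808) and IFITM1, which blocks viral entry, of 1.5 (adjusted p 0.0733). With arrays 1 and 3 of pomalidomide alone out of the fit, IFIT1, IFITM1, IFITM2 and RSAD2 passed, with adjusted p of 0.0283, 0.0258, 0.0393 and 0.0253, and the list then had 13 members called higher. ISG20, an exonuclease, was the 1 member below 0 (log2 difference -0.06, adjusted p 0.966). IFIT1, RSAD2, IFITM1, IFITM2 and ISG20 were named after their values had been seen.

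Upstream of these effectors, the list of nucleic acid sensors and interferon signalling genes had 27 of 35 members measured and none called. It had 19 members above 0, beside 48.3% of all genes, a median of 0.07 and 6 members with non-overlapping arrays, beside 15.6% of all genes, all 6 higher in the pair. STING1, the adaptor of cytosolic DNA sensing, stood at 5.70, 6.02 and 6.75 in control and at 7.97, 6.89 and 7.25 in the pair (log2 difference 1.21, adjusted p 0.136). RIGI, the RNA sensor, had a log2 difference of 0.77 (adjusted p 0.357), TLR7 of 0.69 (adjusted p 0.407) and IRF9, an interferon regulatory factor, of 0.65 (adjusted p 0.120). The list was thus mixed, with a few large positive differences and a median near that of all genes.

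**Figure D2:**
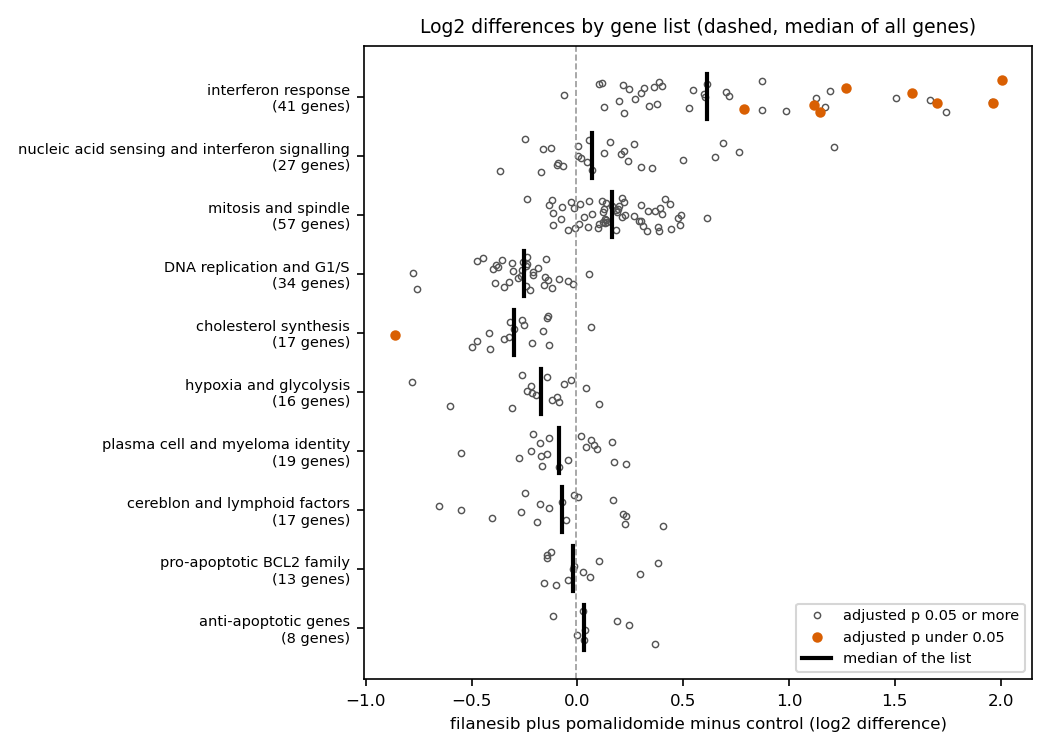
Log2 differences between the pair and control for the genes of 10 lists, 1 point per gene, filled where the adjusted p was under 0.05, with the median of each list as a black bar and the median of all genes as a dashed line. The interferon list reaches 2.01 with its median at 0.61, the mitosis list sits to the right of 0 and the replication and cholesterol lists to the left, with 1 filled point, INSIG1, among the last.

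The other 5 genes that rose lie outside the interferon list, and 3 of them, CD68, CD180 and TLR4, are genes of myeloid or B cells. CD68, a glycoprotein of lysosomes and late endosomes that is used as a macrophage marker, rose 2.28-fold, from 8.95, 8.56 and 9.21 in control to 10.42, 9.78 and 10.09 in the pair (log2 difference 1.19, SE 0.18, adjusted p 0.00345). CD180, a relative of the Toll-like receptors found on B cells, rose 2.23-fold, from 5.17, 4.71 and 5.25 to 6.47, 6.04 and 6.08 (adjusted p 0.0227). TLR4, the endotoxin receptor, rose 1.52-fold, from 5.52, 5.75 and 5.62 to 6.32, 6.09 and 6.30 (adjusted p 0.0178). In each, every pair array was above every control array.

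CD68 was the 1 macrophage marker called, of 6 measured out of 12, beside 0.0873% of all genes called higher. CD14, the monocyte co-receptor, stood between 2.85 and 3.17 over the 6 arrays, CD163 between 2.70 and 3.07 and LYZ between 2.43 and 2.70, all near the bottom of the scale, which ran from 1.26 to 13.6. CSF1R lay between 4.14 and 4.54 and MSR1 between 3.88 and 4.19. The mean of the 6 markers was 4.25 to 4.37 in control and 4.34 to 4.63 in the pair, CD68 included. GRN (progranulin), another lysosomal gene, had a log2 difference of 0.84 (adjusted p 0.169). The lysosome list had 1 of 18 measured members called, CD68 itself, beside 0.0873% of all genes called higher, and a median of 0.06. No member of the endothelial, fibroblast, smooth muscle and pericyte, adipocyte, T and NK cell or neutrophil marker lists was called. The list means of each lay between 2.89 and 4.73 in the control and pair arrays. No erythroid marker was measured. The probes are human, so they may miss host cells of the mouse.

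TCN2, the vitamin B12 carrier transcobalamin, rose 1.72-fold, from 7.26, 7.17 and 7.46 in control to 8.22, 8.01 and 8.03 in the pair (adjusted p 0.0417). PAG1, a membrane adaptor that recruits the kinase CSK to lipid rafts, rose 1.57-fold, from 4.97, 4.88 and 5.12 to 5.62, 5.47 and 5.83 (adjusted p 0.0103). The pair arrays of both genes were close together and clear of control.

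Among the genes that fell, INSIG1 was the most abundant. INSIG1 is an endoplasmic reticulum protein that holds back the sterol regulator SREBP and is itself a target of SREBP. It fell 1.82-fold, from 9.33, 9.19 and 9.67 in control to 8.51, 8.47 and 8.62 in the pair (log2 difference -0.86, SE 0.15, 95% interval -1.17 to -0.55, adjusted p 0.0118). It was no longer called without control array 3 (adjusted p 0.0802), pair array 1 (0.0759) or pair array 3 (0.0654). The cholesterol synthesis list had 17 of 25 members measured. INSIG1 was the 1 member called, beside 0.0537% of all genes called lower. Of the 17, 16 were below 0, where 48.3% of all genes lay above 0. The list median was -0.30, and in 7 members the arrays did not overlap, beside 15.6% of all genes, all 7 lower in the pair. The list mean was 6.92, 6.81 and 6.96 in the control arrays and 6.55, 6.60 and 6.63 in the pair, so the groups did not overlap.

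Enzymes of the pathway were lower in the pair without passing the test. DHCR7, which makes the last step to cholesterol, stood at 8.55, 8.20 and 8.64 in control and at 8.04, 8.06 and 7.80 in the pair (log2 difference -0.50, adjusted p 0.233). HMGCS1, which makes HMG-CoA, had a log2 difference of -0.47 (adjusted p 0.514) and MSMO1, a sterol demethylase, of -0.42 (adjusted p 0.504). The HMGCS1 arrays were tight, at 6.76, 6.67 and 6.66 in control and 6.21, 6.23 and 6.24 in the pair. The arrays of pomalidomide alone, which enter the shared estimate of its spread, stood at 5.92, 6.91 and 6.82 in some order. HMGCS1 was not called in any of the 10 alternative fits in which it was followed. These include fits with fewer or no arrays of pomalidomide alone. Why it was not called was not tested. SCD, the stearoyl-CoA desaturase of the fatty acid list, had a log2 difference of -0.43 (adjusted p 0.593). Of that list's 11 measured members 10 were below 0, where 48.3% of all genes lay above 0, and none was called.

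The other genes that fell were of low or moderate level. MIR598 fell 2.20-fold, from 4.22, 4.43 and 4.51 in control to 3.06, 3.62 and 3.07 in the pair (adjusted p 0.00425). MIR4502 fell 2.08-fold, from 5.55, 5.47 and 5.61 to 4.67, 4.73 and 4.06 (adjusted p 0.00535). MIR362 fell 1.70-fold, from 3.51, 3.52 and 3.76 to 2.82, 2.88 and 2.80 (adjusted p 0.0118). MIR876, at 1.97 to 2.05 in the pair and 2.57 to 2.87 in control, lay near the bottom of the scale in all 6 arrays and fell 1.60-fold (adjusted p 0.0118). The 4 were 0.364% of the 1098 microRNA genes tested, beside 0.0537% of all genes called lower. None of the 1098 was called higher, beside 0.0873% of all genes. The sources used here do not say whether these probe sets detect the mature RNA or its precursors.

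LSP1P5, a pseudogene of the lymphocyte gene LSP1, fell 1.97-fold, from 6.20, 5.87 and 5.77 to 4.92, 4.88 and 5.10 (adjusted p 0.00345). It has another, dimmer probe set, in which the log2 difference was -0.18 with an adjusted p of 0.894 over all probe sets, and its signal cannot be assigned with certainty because LSP1 itself is a near copy. IGFBP7, a secreted binder of insulin-like growth factors, fell 1.78-fold, from 6.67, 6.49 and 7.09 to 6.12, 5.96 and 5.68 (adjusted p 0.0375). KRTAP20-1 fell 1.88-fold, from 4.03, 4.38 and 3.97 to 3.05, 3.20 and 3.39 (adjusted p 0.0442), and lost its call in each of the 6 fits that left out 1 array of the comparison, with adjusted p from 0.0710 to 0.266.

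No gene of the mitosis and spindle list passed against control. Of its 67 members 57 were measured, 46 of them above 0, beside 48.3% of all genes, with a median of 0.17. Among them 16 had non-overlapping arrays, beside 15.6% of all genes, and all 16 were higher in the pair. The list mean was 6.86, 6.91 and 7.13 in the control arrays and 7.22, 7.07 and 7.14 in the pair, so the groups overlapped. CDC20, which the spindle checkpoint restrains from starting anaphase, stood at 7.80, 7.57 and 7.80 in control and at 8.23, 8.31 and 8.10 in the pair (log2 difference 0.48, SE 0.13, adjusted p 0.168). BUB1, a checkpoint kinase, stood at 7.92, 7.96 and 8.27 against 8.56, 8.48 and 8.45 (log2 difference 0.45, adjusted p 0.232). PLK1, the polo-like kinase of mitotic entry, had a log2 difference of 0.44 (adjusted p 0.339), DEPDC1 of 0.61 (adjusted p 0.277) and CCNB1, the mitotic cyclin B1, of 0.38 (adjusted p 0.723). For all 5 genes the pair arrays lay above the control arrays. In another, dimmer probe set of DEPDC1 the log2 difference was 0.17 (adjusted p 0.849 over all probe sets).

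KIF11, the target of filanesib, stood at 8.42, 8.44 and 8.90 in control and at 8.78, 8.48 and 8.71 in the pair. The groups overlapped, and the log2 difference was 0.07 with a 95% interval of -0.34 to 0.47. KIF15, the kinesin that can stand in for KIF11, had a log2 difference of -0.12 (adjusted p 0.961). The drug acts on the motor protein, so these RNA levels are no check of its action.

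The DNA replication and G1/S list lay on the other side of 0. Of its 54 members 34 were measured and none was called. Of these 34, 33 were below 0, with a median of -0.25, where 48.3% of all genes lay above 0. In 10 the arrays did not overlap, beside 15.6% of all genes, and all 10 were lower in the pair. The list mean was 7.30, 7.07 and 7.43 in control and 7.08, 6.97 and 6.93 in the pair, where 1 pair array lay above the lowest control array. With pomalidomide alone against control, 18 of the 34 were called lower, beside 219 of all 14884 genes. There 33 lay below 0 and the median was -0.63, further from 0 than with the pair. With filanesib alone none was called and the median was 0.01. GINS2, a subunit of the replicative helicase, stood at 5.78, 5.68 and 5.43 in control and at 4.89, 4.57 and 5.10 in the pair (log2 difference -0.78, SE 0.18, adjusted p 0.0831). CCNE1, cyclin E1 of the G1/S transition, stood at 7.43, 7.19 and 7.35 against 6.81, 6.46 and 6.42 (log2 difference -0.76, adjusted p 0.339). RRM2, the small subunit of ribonucleotide reductase, had a log2 difference of -0.48 (adjusted p 0.284), and MCM10, a replication initiation factor, of -0.26 (adjusted p 0.744). Without arrays 1 and 3 of pomalidomide alone in the fit, GINS2 and CCNE1 passed, with adjusted p of 0.0400 and 0.0464.

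**Figure D3:**
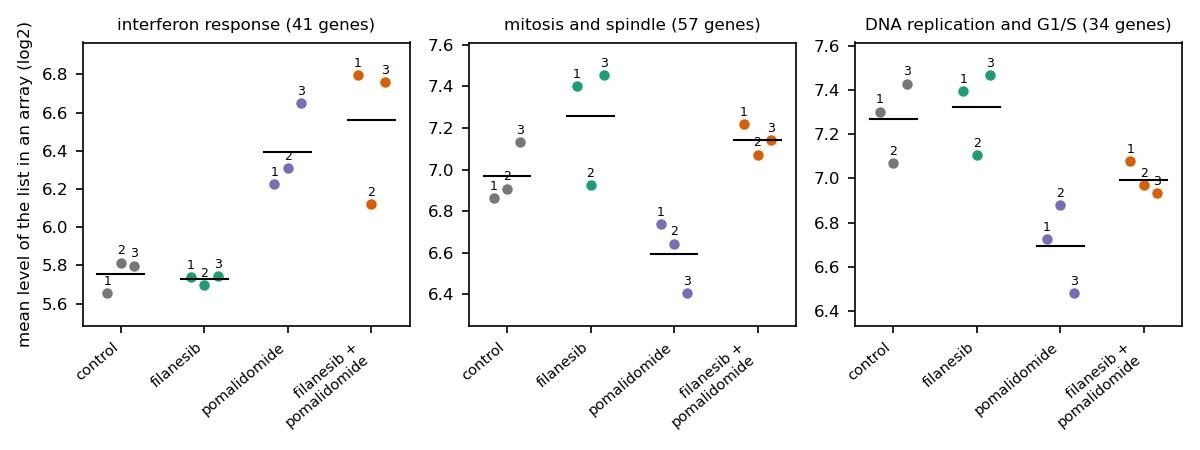
Mean log2 level of the measured genes of 3 lists in each array of control, filanesib alone, pomalidomide alone and the pair, with the array number above each point and the group mean as a bar; the vertical axes do not start at 0 and differ between panels. The interferon mean of the pair is 6.80, 6.12 and 6.76 with array 2 lowest, and the pair's mitosis and replication means lie between those of the single drugs.

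The targets and the survival genes of myeloma showed no called change. CRBN, which encodes cereblon, stood at 6.67, 6.84 and 6.81 in control and at 6.92, 7.04 and 7.05 in the pair (log2 difference 0.23, adjusted p 0.673). IKZF1 had a log2 difference of 0.23 (adjusted p 0.747) and IKZF3 of -0.27 (adjusted p 0.850), both at the RNA level, whereas the drug is known to act on the proteins. IRF4, the master regulator of plasma cells, stood at 10.30, 10.19 and 10.43 in control and at 9.48, 10.01 and 9.78 in the pair. Its arrays did not overlap, and its log2 difference was -0.55 with a 95% interval of -1.02 to -0.08 and an adjusted p of 0.522. MYC had a log2 difference of -0.18 (adjusted p 0.835) and MYB, a proto-oncogene of blood progenitors, of -0.66 (adjusted p 0.353). The surface antigens CD38 and SLAMF7, both targets of therapeutic antibodies, had differences of 0.17 (adjusted p 0.747) and 0.02 (adjusted p 0.991).

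In the BCL2 family, none of 13 pro-apoptotic and none of 8 anti-apoptotic genes measured was called, and the list medians were -0.02 and 0.03. BCL2L11 (BIM), a BH3-only killer, stood between 6.62 and 7.21 in control and at 7.23, 7.13 and 7.35 in the pair (log2 difference 0.29, 95% interval -0.14 to 0.73). BMF, a BH3-only protein tied to the cytoskeleton, had a log2 difference of 0.38 (adjusted p 0.443), and PMAIP1 (NOXA) of -0.12 (adjusted p 0.953). In another, dimmer probe set of BMF it was 0.08 (adjusted p 0.939 over all probe sets). BBC3 (PUMA) had a log2 difference of 0.06. MCL1, on which many myeloma cells depend, had a log2 difference of -0.12 with a 95% interval of -0.36 to 0.13. BCL2 had a log2 difference of 0.37 (adjusted p 0.656) and BCL2L1 (BCL-XL) of 0.00 with an interval of -0.24 to 0.24. With 3 arrays a group, the 95% interval of a difference reached a median of 0.29 to either side over all genes, and single genes had narrower or wider ones.

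In the other stress lists no gene was called, and over all genes 48.3% lay above 0. The hypoxia and glycolysis list had 14 of 16 measured members below 0, a median of -0.17 and 5 members with non-overlapping arrays, beside 15.6% of all genes, all 5 lower in the pair, with PGAM1, a glycolytic mutase, at -0.78 (adjusted p 0.504) and ANKRD37, a HIF target, at -0.60 (adjusted p 0.213). The ATF4 and amino acid response list had 15 of 18 below 0 and a median of -0.10, with PHGDH, which starts serine synthesis, at -0.33 (adjusted p 0.405). The unfolded protein response, heat shock, p53 target, DNA repair, glucocorticoid target and ribosome biogenesis lists had medians between -0.10 and 0.00. IER2, an immediate early gene, had a log2 difference of 0.67 (adjusted p 0.197), while its list had 16 of 21 members below 0.

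The pair and both single drugs were set against the same control arrays, so these comparisons are not independent and their values are given side by side. All 13 genes that rose with the pair were above control with pomalidomide alone, by 0.47 to 1.52, and differed from control by -0.24 to 0.49 with filanesib alone. For XAF1, the difference from control was 2.01 for the pair, 1.5 for pomalidomide and -0.09 for filanesib. The corresponding values were 1.70, 1.49 and 0.14 for IFI44, 1.58, 0.96 and -0.24 for MX2, and 1.19, 0.94 and 0.04 for CD68. With filanesib alone the highest of the 13 were CD180, at 1.16, 1.11 and 0.49, and TLR4, at 0.61, 0.52 and 0.33. Among the genes that fell, the values were -0.86, -0.22 and -0.34 for INSIG1 and -1.06, -0.26 and -0.40 for MIR4502. In number, 0 of the 14884 genes were called for filanesib alone by limma, with 587 at an unadjusted p under 0.05. For pomalidomide alone 294 were called, 75 higher and 219 lower. That count rests on the widely spread arrays of pomalidomide alone, and how far it depends on them was not tested. The counts are therefore no ranking of the drugs' effects.

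Against filanesib alone, the pair had 26 genes higher and 11 lower (0.249% of all genes; 0.175% higher and 0.0739% lower), a comparison in which the arms differ by pomalidomide. Interferon genes again led: 11 of the 41 measured were called higher and 39 lay above 0, beside 48% of all genes, with a median of 0.64. XAF1 differed by 2.09 (adjusted p 8.67e-05), IFITM1 by 1.69 (0.0318) and GBP4, an interferon-induced GTPase, by 1.60 (0.0473). IRF9 was also called (0.81, adjusted p 0.0318). The list mean was 5.74, 5.70 and 5.75 in the arrays of filanesib alone, all below the lowest pair array at 6.12, and 28 members had arrays that did not overlap, beside 19.2% of all genes. Of the lower genes, MIR539 differed by -1.93 (adjusted p 0.0396), GINS2 by -0.93 (0.0277), C12orf75 by -0.92 (0.0166) and UQCRHL, a copy of a respiratory chain gene, by -0.75 (0.0190). The total of 37 calls became 2, 70 and 9 without pair arrays 1, 2 and 3, and 4, 28 and 9 without arrays 1, 2 and 3 of filanesib alone. The interferon count became 1, 20 and 2 and 2, 5 and 5 in the same order.

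Against pomalidomide alone, the pair had 38 genes higher and 15 lower (0.356% of all genes; 0.255% higher and 0.101% lower), a comparison in which the arms differ by filanesib. Among the lower were 3 of the 23 small Cajal body RNAs tested, a class described below. These were SCARNA5 (-2.09, adjusted p 0.0311), SCARNA6 (-1.82, 0.0458) and SCARNA10 (-1.12, 0.0296). MIR4502, which also fell against control, differed by -0.80 (adjusted p 0.0370). Mitotic genes were prominent: 10 of the 57 measured were called higher, all 57 lay above 0, beside 53.5% of all genes, and 41 had arrays that did not overlap, beside 13.6%. The median was 0.54, beside 0.02 over all genes. Part of this gap lay below control. With pomalidomide alone against control, 55 of the 57 lay below 0, with a median of -0.36. Of these, 4 were called lower, beside 219 of all 14884 genes. The pair's own median against control was 0.17, with none called. CDC20 stood at 7.30, 7.40 and 7.25 with pomalidomide alone and at 8.23, 8.31 and 8.10 with the pair, a 1.86-fold difference (log2 0.90, SE 0.13, adjusted p 0.00618). PLK1 stood at 8.82, 9.17 and 8.84 against 9.86, 9.82 and 9.68, a 1.80-fold difference (adjusted p 0.0188). The arrays of pomalidomide alone and of the pair were well apart for both genes. ARHGAP11A, a gene of cell division, differed by 1.13 (adjusted p 0.0296), CDCA8 (borealin, of the chromosomal passenger complex) by 0.83 (0.0278) and FOXM1, the transcription factor of mitotic genes, by 0.81 (0.0318). The others called were CENPA, CEP55, INCENP, BUB1 and BUB1B, with differences from 0.59 to 0.77. FOXM1, CENPA, CEP55, INCENP and BUB1B were named after their values had been seen. ARHGAP11B, a near copy of ARHGAP11A, differed by 1.32 (adjusted p 0.0497), and signal may be shared between the copies.

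This comparison used the arrays of pomalidomide alone, which spread widely, and its calls moved with the arrays of either group. ARHGAP11A, for example, stood at 8.02, 7.57 and 6.54 in them. Without arrays 1 and 3 of pomalidomide alone, where the lone array left is assumed to vary like the other groups, 0 genes were called, and the median of the mitotic list was 0.51. The total of 53 became 45, 511 and 17 without pomalidomide arrays 1, 2 and 3, and 0, 0 and 1 without pair arrays 1, 2 and 3. The mitotic count became 10, 17 and 2 and 0, 0 and 1 in the same order, with medians between 0.46 and 0.64. It was also 0 when only the pair and pomalidomide alone were fitted, where 0 genes in all were called.

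**Figure D4:**
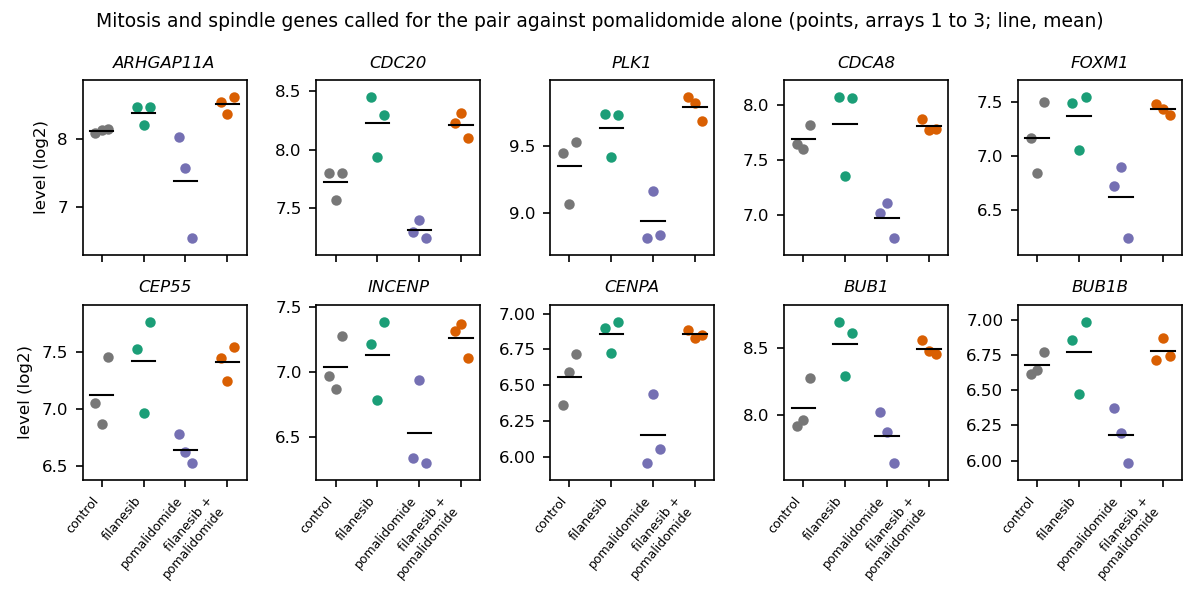
Log2 levels of the 10 mitosis and spindle genes called for the pair against pomalidomide alone, in each array of control, filanesib alone, pomalidomide alone and the pair, with the group mean as a line; the vertical axes do not start at 0. In each gene the mean of pomalidomide alone is the lowest of the 4 group means, though single pomalidomide arrays overlap control in some genes, such as BUB1 and FOXM1.

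Against filanesib alone, the same mitotic genes differed little in the pair. CDC20 differed by -0.02 with a 95% interval of -0.28 to 0.25, BUB1 by -0.04 with an interval of -0.31 to 0.23 and PLK1 by 0.16 with an interval of -0.14 to 0.46. Over the 57 genes, 0 were called and the median was -0.08. Of them 18 lay above 0, beside 48% of all genes. In 3 the arrays did not overlap, beside 19.2% of all genes, and all 3 were lower in the pair. The list means were 7.40, 6.93 and 7.45 in filanesib alone and 6.74, 6.64 and 6.41 in pomalidomide alone, so the pair's 7.22, 7.07 and 7.14 lay within the range of filanesib alone and above every array of pomalidomide alone. For the replication list, the means were 7.40, 7.11 and 7.47 in filanesib alone and 6.72, 6.88 and 6.48 in pomalidomide alone, and the pair's 7.08, 6.97 and 6.93 lay between them. For interferon genes, none of the 41 was called between the pair and pomalidomide alone, and the median was 0.20. There XAF1 differed by 0.50 (95% interval 0.02 to 0.99, adjusted p 0.352), HERC6 by 0.42 (0.00 to 0.85, adjusted p 0.371) and IFI44 by 0.21 (-0.31 to 0.73, adjusted p 0.767).

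A pair of genes was called against each of the single drugs, though not against control. SVIL, which encodes the actin-binding protein supervillin, stood at 4.86, 4.76 and 4.77 in the pair and at 3.88 to 4.25 in the single drugs, with 4.41, 3.96 and 4.29 in control. It was higher by 0.85 against pomalidomide (adjusted p 0.0188) and by 0.69 against filanesib (adjusted p 0.0396), and by 0.58 against control (adjusted p 0.123). With 1 array left out, SVIL lost its call against filanesib in each of 6 fits (adjusted p 0.0558 to 0.212) and against pomalidomide in the 3 that left out an array of the pair (0.0508 to 0.0973). TRIM16, a ubiquitin ligase, stood at 3.75, 3.65 and 4.11 in the pair and at 4.48 to 4.88 in the single drugs, with 4.36, 4.46 and 4.83 in control. Its differences were -0.82 against filanesib (adjusted p 0.0377), -0.75 against pomalidomide (adjusted p 0.0497) and -0.71 against control (adjusted p 0.0933). TRIM16 kept its call against filanesib only without pair array 3, among 6 such fits (adjusted p 0.0474 to 0.212), and against pomalidomide only without pomalidomide array 2 (0.0294 to 0.191).

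The departure of the pair from the sum of the 2 single drugs was tested as the difference of differences. It asks whether filanesib did the same beside pomalidomide as alone. Only 4 genes passed (0.0269% of those tested), all lower than the sum, and all 4 were small Cajal body RNAs, the guide RNAs that direct modification of the spliceosome's small nuclear RNAs. Of 23 such RNAs tested, 4 were above 0, beside 52.6% of all genes, and the median was -0.63, beside 0.02 over all genes. SCARNA10 stood at 8.40, 9.14 and 8.49 in control, at 9.34, 10.35 and 9.74 with filanesib, at 10.59, 10.18 and 10.94 with pomalidomide and at 9.46, 9.59 and 9.31 with the pair. Both single drugs were above every control array, and the pair was below every array of pomalidomide. The departure was -2.25 (SE 0.32, 95% interval -2.91 to -1.59, adjusted p 0.00505).

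SCARNA6 stood at 6.53, 7.35 and 6.15 in control, at 7.78, 8.63 and 8.29 with filanesib, at 8.82, 8.74 and 9.82 with pomalidomide and at 7.21, 7.42 and 7.29 with the pair. The departures were -3.37 for SCARNA6, -3.62 for SCARNA5 and -1.62 for SCARNA12, each with an adjusted p of 0.0168. Against control, the pair's own differences were 0.78, 0.63, -0.22 and 0.56 for SCARNA10, SCARNA6, SCARNA5 and SCARNA12, none called. Of the 4, SCARNA10 kept its call in each of the 12 fits that left out 1 array. The count was 1 without control array 1 or 3, filanesib array 2 or 3, pomalidomide array 3 or pair array 1 or 3. Without pomalidomide array 2 it was 152, of which 124 were higher than the sum and 28 lower, the 4 RNAs among them, so most calls then lay above the sum. Without arrays 1 and 3 of pomalidomide alone, the departures were -1.86, -2.98, -2.98 and -1.32 in the same order and 0 genes were called. No interferon, mitotic or replication gene passed this test, which had 1571 genes at an unadjusted p under 0.05 and 95% intervals that reached a median of 0.42 to either side.

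**Figure D5:**
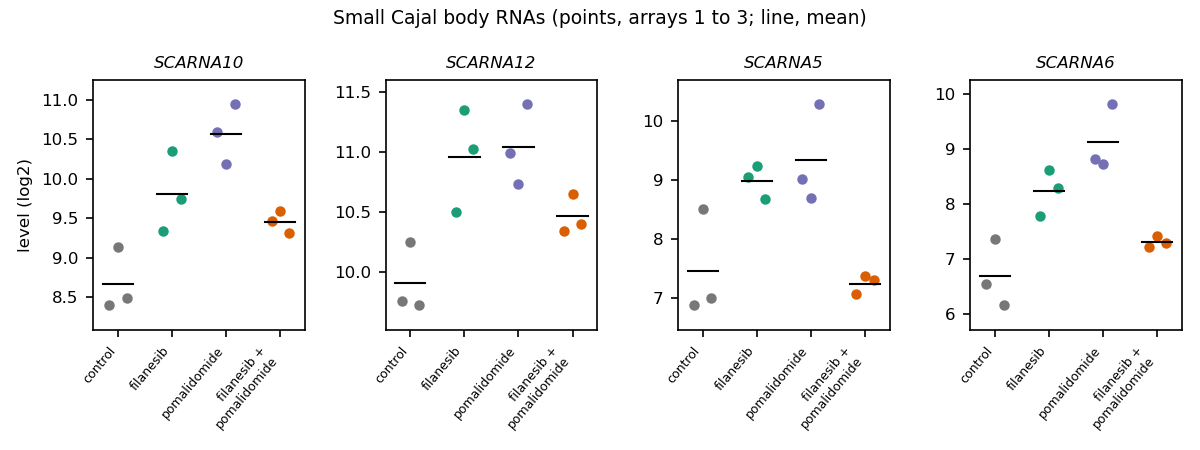
Log2 levels of the 4 small Cajal body RNAs called for departure from the sum, in each array of control, filanesib alone, pomalidomide alone and the pair, with the group mean as a line; the vertical axes do not start at 0. Each single drug lies above control in its mean, and the pair lies below the mean of each single drug.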

How the data were processed

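Total RNA of plasmacytomas was hybridised to an Affymetrix array in 24 samples (8 groups of 3). The deposited values are log2 levels that the authors made, and the submitters' processing notes name RMA and Affymetrix Expression Console, with versions not given in the sources used here. RMA aligns the arrays' distributions and can hide a shift common to most genes. Of 53617 probe sets, 16098 carried 1 symbol, 0 several and 37519 none. Those without a symbol were left out of the gene tests. Of the genes, 779 had more than 1 probe set. Symbols are those of the platform annotation, which can be old.

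Group means were estimated from all 24 arrays with limma 3.58.1 in R 4.3.3 (16 residual and 7.12 prior degrees of freedom), two-sided, with Benjamini-Hochberg adjustment and a threshold of 0.05. The script was tested on simulated data. The median SE of a difference was 0.14, and the number of arrays limits the precision. Up to 15 rises and 15 falls with non-overlapping arrays were to be named, then 6 each in the other contrasts, up to 4 members per list by p, and some genes of interest. TNFRSF17 and CDKN1A were not in the probe table. Members and lists were chosen with earlier results of these data known. Same-numbered arrays of the pair and control correlated at -0.02, -0.02 and -0.07 in their deviations. Differently numbered ones correlated at -0.09 to 0.12. The arrays of the single drugs were not checked, so these values do not settle whether arrays share a batch by number. Alternatives covered normalization, filter, weights, prior, block, arrays and probe sets.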

Additional observations from a re-analysis of the deposited data

Results flagged for a closer look

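A difference between groups was found in 4 small Cajal body RNAs, in which the effect of filanesib beside pomalidomide differed from its effect alone by the tested difference of differences. These were SCARNA10 (-2.25), SCARNA12 (-1.62), SCARNA5 (-3.62) and SCARNA6 (-3.37), on the log2 scale. SCARNA10 kept its call in each of the 12 fits that left out 1 array, while SCARNA5, SCARNA6 and SCARNA12 lost theirs in 8, 7 and 7. With pomalidomide alone against control, 6 of the 23 such RNAs were called higher, beside 75 of all 14884 genes.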

How the results depend on the processing

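The main counts of called genes were 21 against control, 37 against filanesib alone, 53 against pomalidomide alone and 4 for the departure from the sum. The labels do not pair same-numbered arrays, and the correlations of the pair and control do not settle whether they share a batch. With the replicate block the counts were 24, 34, 37 and 4, and 19 of the 21 genes called against control kept their call. With a further quantile normalization, 19 genes were called against pomalidomide alone. With array weights the counts were 149 against control (all 21 among them), 322 against filanesib alone and 2 against pomalidomide alone. A trended and robust prior gave 2 departures. When only the compared groups were fitted, the counts were 15 against filanesib alone, 0 against pomalidomide alone and 2 for the departure, and 13 of the 21 genes called against control kept their call among 27. A test of every probe set called 51, 18, 2 and 2, and 38 of the 51 had no symbol. With protein-coding genes only, 0 departures were called, since that filter removes the 4 small Cajal body RNAs from the test. Against a minimum change of 1.5-fold the counts were 1 (XAF1), 1, 0 and 0. Without arrays 1 and 3 of pomalidomide alone they were 53, 79, 0 and 0, and with no array of pomalidomide alone, chosen after seeing the data, 53 and 79. Leaving out 1 array of the compared groups at a time gave 3 to 57, 2 to 70, 0 to 511 and 1 to 152. The cause of these moves was not tested.

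Signs turned in a few genes near 0 that were not called against control. SLAMF7 was at -0.002 with a further quantile normalization, and BCL2L1 at 0.009 with arrays centred on their medians. With 1 array left out, the log2 differences ranged from -0.158 to 0.018 for ISG20, -0.0131 to 0.225 for KIF11, -0.235 to 0.0365 for KIF15, -0.0868 to 0.233 for BBC3, -0.0547 to 0.0452 for BCL2L1, -0.0187 to 0.0635 for SLAMF7 and -0.511 to 0.308 for SCARNA5. The other genes followed through the alternatives kept their direction wherever they were fitted. SDC1, MZB1, POU2AF1, CD14, CD163, LYZ, CSF1R and MSR1 were not followed. In the comparisons other than against control, only genes called there were followed. With 3 arrays a group, the median 95% interval reached 0.29 to either side of a difference.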
